A study of Mus musculus with 6 samples.

Results

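Transcripts of 10 genes that mark astrocytes, neurons or oligodendrocytes were followed in RNA-seq libraries of sorted hippocampal microglia. The astrocyte markers were Gja1, Slc1a3, Slc1a2 and Plpp3, the neuron markers were Rtn1, Prox1, Snap25 and Sox11, and the oligodendrocyte markers were Cldn11 and Trf. They are 10 of the 11881 genes in the count table. The genes were chosen by name, with their levels in these libraries and their differences between the genotypes already known. Values of that comparison and of that covariation therefore describe the 10 genes and support nothing about them.

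Microglia, which are macrophages that live in brain tissue, had been isolated by a CD11b+ CD45low gate from the hippocampus of male mice of postnatal days 17 to 21. Of the 6 libraries, 3 came from mice labelled Mll5+/- and 3 from mice labelled WT. Mll5, now called Kmt2e, encodes a chromatin protein of the MLL family, and the labels give no further detail of the disrupted allele. Each sample carries an animal number of its own, so 1 library stands for 1 mouse, and replicate numbers are names only. RNA was extracted with TRIzol, and cDNA was amplified by the SMART-seq method.

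Astrocytes take up glutamate through the transporters Slc1a3 and Slc1a2 and couple to one another through gap junctions built from Gja1. Neurons release transmitter through a membrane fusion machinery that includes Snap25, and oligodendrocytes wrap axons in myelin whose layers are sealed by Cldn11. A sort for microglia selects against these cells by surface protein. Some of these genes are not exclusive to the class they mark. Trf, for example, is made in the choroid plexus and the liver as well as in oligodendrocytes. In bulk libraries such as these, fewer cells of a type and less RNA per cell cannot be told apart.

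The libraries labelled Mll5+/- held 25247504, 28053173 and 21075570 counts, and those labelled WT held 23884734, 25912809 and 29730400. At these depths 3 counts correspond to between 0.104 and 0.142 CPM (counts scaled to a common, TMM-adjusted library size). Kmt2e had 648, 298 and 513 CPM across the libraries labelled Mll5+/- and 479, 378 and 687 CPM in those labelled WT. Its log2 fold change was -0.08 (SE 0.314, 95% interval -0.79 to 0.63), so the counts of this gene do not set the genotypes apart, and the groups are called by their labels throughout. Microglial identity genes had counts in every library: all 18 listed microglia markers did, and Tmem119, Cx3cr1, Csf1r and P2ry12 averaged 96.5, 316, 190.2 and 994 CPM per kb of exon. The mean correlation of a library with the other 5 lay between 0.772 and 0.819, and was lowest in Mll5+/- replicate 3, followed by WT replicate 3 at 0.792. Between the labelled genotypes edgeR's quasi-likelihood test called 0 of 10832 tested genes (0.00%) at an adjusted p under 0.05, with 312 genes at an unadjusted p under 0.05. DESeq2 called 29 of 11377 genes (0.255%), with 565 at an unadjusted p under 0.05.

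All 10 markers passed the low-count filter, and 9 of them had counts in all 6 libraries. Per kb of exon, 3 of them stood well above the others: Slc1a3 averaged 81.0 CPM per kb, Trf 66.0 and Rtn1 36.7. The remaining 7 averaged between 1.32 CPM per kb (Sox11) and 6.81 CPM per kb (Snap25). The level of Slc1a3 per kb was nearest, among the identity genes above, to the 96.5 of Tmem119.

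**Figure D1:**
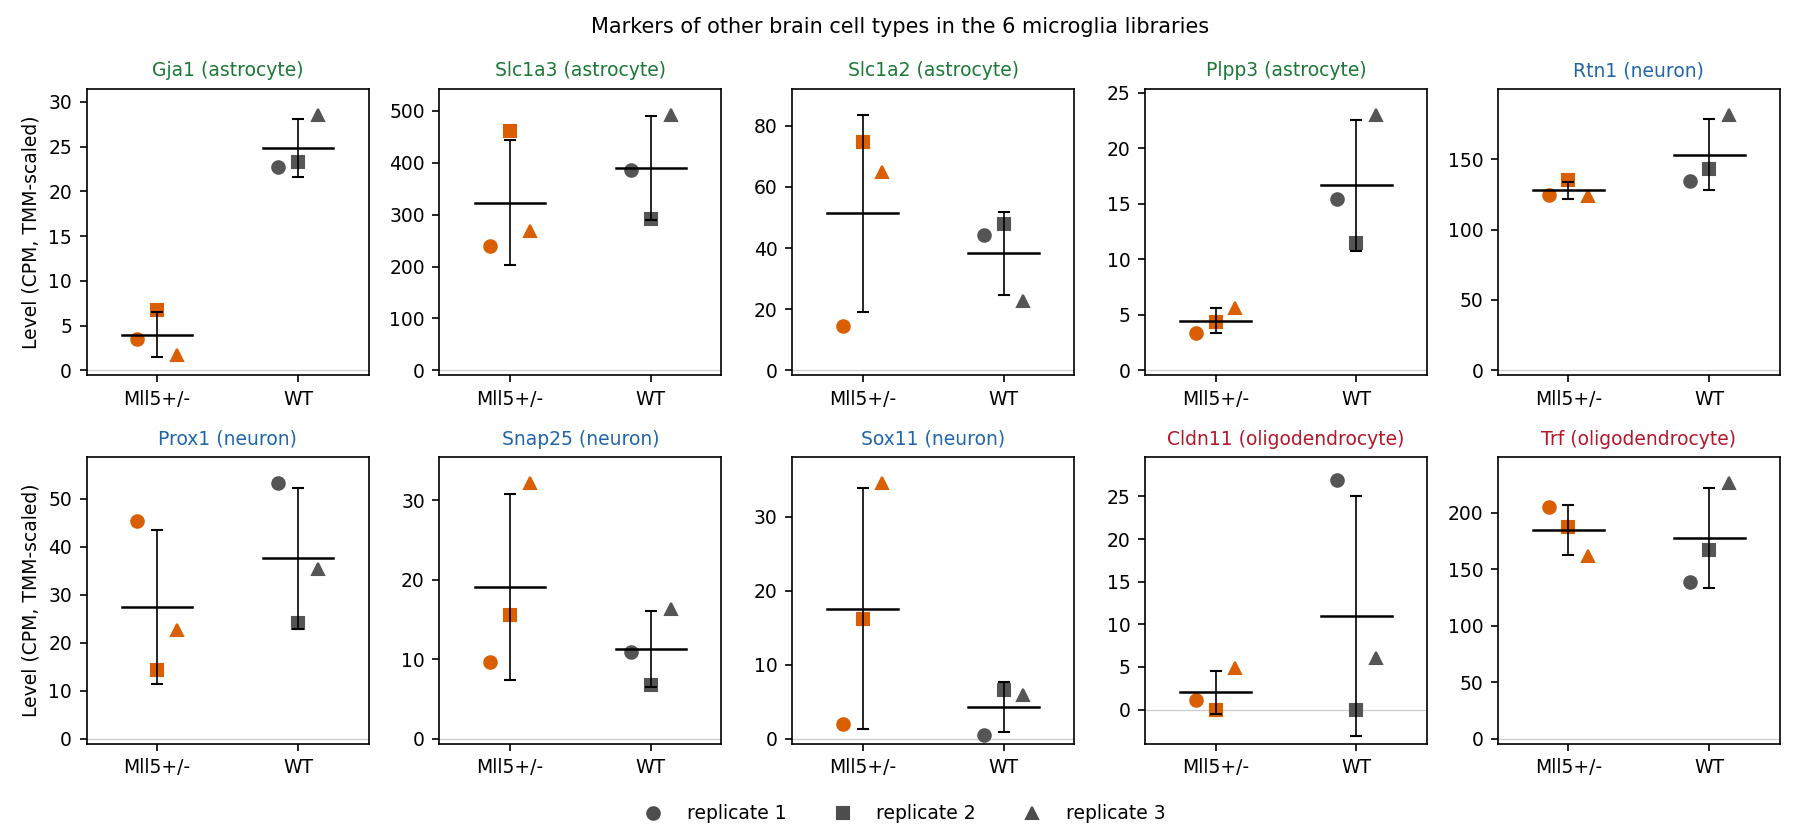
Levels of the 10 markers in CPM (vertical axes, 1 panel per gene, linear scale) in the libraries labelled Mll5+/- (orange, left) and WT (grey, right). Symbols are libraries, horizontal bars are means and error bars are SD (n = 3 each). The groups do not overlap for Gja1 and Plpp3. Rtn1 has the smallest spread relative to its mean over the 6 libraries, and the Mll5+/- values of Trf lie within the range of WT.

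Gja1 (chromosome 10, 56253426 to 56266511, mm39), the main gap junction protein of astrocytes, had 3.51, 6.70 and 1.75 CPM across the libraries labelled Mll5+/- and 22.7, 23.2 and 28.6 CPM in those labelled WT. The groups did not overlap, and the lowest WT library lay above the highest Mll5+/- library by more than the range within either group. The means were 3.99 ± 2.51 CPM in Mll5+/- and 24.8 ± 3.24 CPM in WT (SD, n = 3 each). The log2 fold change was -2.64 (SE 0.631, 95% interval -4.07 to -1.20). The counts behind it were 89, 191 and 37 in Mll5+/- and 544, 604 and 824 in WT, so the difference does not rest on counts near the floor. Gja1 did not pass in edgeR and passed in DESeq2 (adjusted p = 0.0343). Leaving out each library in turn gave log2 fold changes between -3.25 and -2.29. Of the 9 connexins looked at, Gja5 was the other one with a row in the table, at 0 counts in all 3 Mll5+/- libraries and at 1.63, 1.04 and 0.277 CPM in WT. With only 39, 27 and 8 counts in WT, Gja5 did not pass edgeR's low-count filter. DESeq2 did not call it (adjusted p = 0.910).

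Plpp3 (chromosome 4, 105014544 to 105089961), a lipid phosphate phosphatase found in astrocytes and in vessel walls, had 3.39, 4.39 and 5.62 CPM across the libraries labelled Mll5+/- and 15.5, 11.5 and 23.0 CPM in those labelled WT. Here too the groups did not overlap, and the spread was wider in WT. The means were 4.47 ± 1.12 CPM in Mll5+/- and 16.6 ± 5.87 CPM in WT (SD, n = 3 each), with a log2 fold change of -1.90 (SE 0.612, 95% interval -3.29 to -0.51). Plpp3 passed in neither edgeR nor DESeq2. Among its relatives, Plpp5 and Plpp1 had higher levels per kb, 8.99 and 7.36 CPM per kb against 3.34 for Plpp3. Plpp1, with 4.02, 19.2 and 16.2 CPM in Mll5+/- and 10.7, 14.2 and 12.97 CPM in WT, overlapped between the groups.

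The genotypes did not overlap, with Mll5+/- lower, in 503 of 10832 tested genes (4.64%), and with Mll5+/- higher in 507 (4.68%). Gja1 and Plpp3 were 2 of the 503 lower genes, and 0 of the 10 markers were among the 507. Since this contrast was known when the markers were chosen, nothing is read from their count. P2ry12, the purinergic receptor that marks homeostatic microglia, was the most abundant gene of the microglia list. It had 1115, 1231 and 1086 CPM in Mll5+/- and 4266, 1366 and 5496 CPM in WT, also without overlap and called by DESeq2 (adjusted p = 0.0343). Its part in the values of Gja1 and Plpp3 was not tested.

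The 5′ regions of Gja1 and Plpp3 are shown because these are the markers whose groups did not overlap, and that of Slc1a3 because it was the most abundant of the 10 markers per kb. Each holds 300 bases around the RefSeq start, most of them before it (GRCm38.p6, a different build from the table's mm39 coordinates), 5′ to 3′ on the gene's strand. Capitals mark 2 motifs found on either strand, TATAAA (the TATA box) in Slc1a3 and TTGGC (the core of the nuclear factor I site) in Plpp3, printed as their reverse complements TTTATA and GCCAA. The windows are chr10:56377050-56377349 on the plus strand for Gja1, chr4:105157097-105157396 on the plus strand for Plpp3 and chr15:8710758-8711057 on the minus strand for Slc1a3.
Gja1: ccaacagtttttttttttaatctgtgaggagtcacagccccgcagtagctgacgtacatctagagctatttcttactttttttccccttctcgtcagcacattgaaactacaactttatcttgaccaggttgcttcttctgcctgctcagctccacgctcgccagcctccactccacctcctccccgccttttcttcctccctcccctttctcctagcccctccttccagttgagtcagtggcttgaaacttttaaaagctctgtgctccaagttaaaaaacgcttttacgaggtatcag
Plpp3: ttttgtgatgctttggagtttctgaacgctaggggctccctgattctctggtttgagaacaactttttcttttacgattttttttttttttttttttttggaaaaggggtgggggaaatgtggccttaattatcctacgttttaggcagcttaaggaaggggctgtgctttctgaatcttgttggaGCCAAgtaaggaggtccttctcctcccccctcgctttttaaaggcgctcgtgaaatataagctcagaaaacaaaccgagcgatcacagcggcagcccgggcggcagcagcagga
Slc1a3: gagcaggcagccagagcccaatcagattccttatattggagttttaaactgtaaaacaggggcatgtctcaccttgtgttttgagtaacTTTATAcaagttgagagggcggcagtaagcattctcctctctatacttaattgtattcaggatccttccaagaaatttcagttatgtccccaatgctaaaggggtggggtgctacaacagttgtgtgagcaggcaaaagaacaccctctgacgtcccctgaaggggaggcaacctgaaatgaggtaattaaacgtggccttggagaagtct
The Gja1 window held none of the motifs searched, the third of which was GAGGAAGT, bound by the myeloid factor PU.1. Of 32851 RefSeq windows of this length, 13.6% held TATAAA, 46.7% held TTGGC and 3.20% held GAGGAAGT on either strand. Windows were at hand for 8 of the 10 markers, 11 windows in all. TTGGC was in those of Cldn11, Plpp3, Slc1a2 and Sox11, TATAAA in those of Slc1a3 and in 1 of Prox1, and GAGGAAGT in 0. A match is a description of these letters and no evidence of binding. The windows of Gja1, Plpp3 and Slc1a3 had GC contents of 47.7%, 46.0% and 45.3%, against a median of 52.7% over all windows.

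Slc1a3 (chromosome 15, 8663608 to 8740248), the glutamate and aspartate transporter GLAST of astrocytes and radial glia, had 239.6, 460.5 and 269 CPM across the libraries labelled Mll5+/- and 386, 292 and 493 CPM in those labelled WT. The groups overlapped widely, and WT replicate 3 was highest. The means were 323 ± 119.8 CPM in Mll5+/- and 390.3 ± 101 CPM in WT (SD, n = 3 each), with a log2 fold change of -0.27 (SE 0.294, 95% interval -0.94 to 0.40). Over the 6 libraries its highest level was 2.06 times its lowest. The other Slc1a member with a row beside Slc1a2 was Slc1a5, a neutral amino acid transporter, at 0.943 CPM per kb.

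Slc1a2 (chromosome 2, 102489004 to 102621129), the glutamate transporter that carries most uptake in the adult forebrain, had 14.5, 74.8 and 64.7 CPM in Mll5+/- and 44.4, 47.8 and 22.7 CPM in WT. Its lowest and its highest level both fell in Mll5+/- libraries. The means were 51.3 ± 32.3 CPM in Mll5+/- and 38.3 ± 13.6 CPM in WT (SD, n = 3 each), with a log2 fold change of 0.42 (SE 0.583, 95% interval -0.90 to 1.75). With sample weights in limma-voom the sign turned, to -0.12. Single libraries moved the value too: it was 0.85 without Mll5+/- replicate 1, 0.03 without Mll5+/- replicate 2, 0.22 without Mll5+/- replicate 3 and 0.15 without WT replicate 3. Per kb, Slc1a2 had 3.71 CPM, beside 81.0 for Slc1a3.

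The 4 astrocyte markers did not keep a fixed ratio to one another. Slc1a3 counts were 16.6, 6.16 and 4.16 times those of Slc1a2 in Mll5+/- and 8.71, 6.11 and 21.7 times in WT, a 5.21-fold span. The ratio of Slc1a2 to Gja1 counts was 4.12, 11.2 and 37.0 in Mll5+/- and 1.95, 2.06 and 0.795 in WT, a 46.6-fold span. The ratio of Gja1 to Plpp3 counts was 1.03, 1.53 and 0.311 in Mll5+/- and 1.47, 2.03 and 1.24 in WT. That last ratio overlapped between the groups, and Mll5+/- replicate 3 stood lowest.

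Rtn1 (chromosome 12, 72258526 to 72455828), a reticulon of the endoplasmic reticulum that is abundant in neurons, was the steadiest of the 10 markers. It had 124.5, 135 and 124 CPM across the libraries labelled Mll5+/- and 134, 143 and 182 CPM in those labelled WT. The groups overlapped between 134 and 135 CPM, and WT replicate 3 was highest. The means were 128 ± 6.27 CPM in Mll5+/- and 153 ± 25.2 CPM in WT (SD, n = 3 each), with a log2 fold change of -0.26 (SE 0.220, 95% interval -0.76 to 0.24). The widely expressed reticulons Rtn4 and Rtn3 had 64.5 and 40.6 CPM per kb, beside 36.7 for Rtn1.

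Prox1 (chromosome 1, 189850232 to 189902911), a homeobox factor of dentate gyrus granule neurons and of lymphatic vessels, had 45.3, 14.4 and 22.6 CPM in Mll5+/- and 53.4, 24.0 and 35.4 CPM in WT. Replicate 1 of each group was highest, and the groups overlapped. The means were 27.4 ± 16.0 CPM in Mll5+/- and 37.6 ± 14.8 CPM in WT (SD, n = 3 each), with a log2 fold change of -0.45 (SE 0.513, 95% interval -1.62 to 0.71). Its paralog Prox2 had 2.99 CPM per kb, beside 3.87 for Prox1.

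Snap25 (chromosome 2, 136555373 to 136624348), the neuronal SNARE protein of the presynaptic membrane, had 9.58, 15.6 and 32.2 CPM in Mll5+/- and 10.9, 6.77 and 16.3 CPM in WT. Mll5+/- replicate 3 was highest, and the other 5 libraries overlapped. The means were 19.1 ± 11.7 CPM in Mll5+/- and 11.3 ± 4.78 CPM in WT (SD, n = 3 each), with a log2 fold change of 0.75 (SE 0.620, 95% interval -0.65 to 2.16). Without Mll5+/- replicate 3 the log2 fold change was 0.14. Its broadly expressed relatives Snap29 and Snap23 had 11.5 and 8.86 CPM per kb, above the 6.81 of Snap25. Of 11 tested SNAP and SNARE genes and partners, 8 had a positive and 3 a negative log2 fold change, and edgeR called 0 of the 11, with 2 at an unadjusted p under 0.05. Among the neuronal fusion partners, Vamp2, the synaptic vesicle SNARE, had 2.80 CPM per kb and Stx1a 0.949. Vamp3, a SNARE found widely outside neurons, was higher, with 39.5 CPM per kb.

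Sox11 (chromosome 12, 27384263 to 27392573), a transcription factor of newborn neurons, had 1.97, 16.2 and 34.6 CPM in Mll5+/- and 0.418, 6.58 and 5.89 CPM in WT. Both groups held 1 library far below its other 2, and the highest level was 82.9 times the lowest. The means were 17.6 ± 16.4 CPM in Mll5+/- and 4.30 ± 3.38 CPM in WT (SD, n = 3 each), with a log2 fold change of 2.03 (SE 1.17, 95% interval -0.62 to 4.68). Without Mll5+/- replicate 3 the log2 fold change was 1.07. Sox4, a related factor with wider expression, had 64.0 CPM per kb beside 1.32 for Sox11.

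The ratio of Rtn1 to Snap25 counts was 13, 8.66 and 3.85 in Mll5+/- and 12.3, 21.1 and 11.1 in WT, a 5.49-fold span. The ratio of Rtn1 to Sox11 counts spanned 89.97-fold over the 6 libraries. Rtn1 counts were 2.75, 9.38 and 5.48 times those of Prox1 in Mll5+/- and 2.52, 5.94 and 5.14 times in WT. That 3.73-fold span was the narrowest of the ratios taken between neuron markers.

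Cldn11 (chromosome 3, 31204069 to 31218473), the tight junction protein of myelin, was the most uneven of the 10 markers. It had 1.14, 0 and 4.91 CPM in Mll5+/- and 26.9, 0 and 6.03 CPM in WT, from 29, 0 and 104 counts in Mll5+/- and 644, 0 and 174 counts in WT. Each group had 1 library with no count, which allows up to 0.105 CPM in Mll5+/- replicate 2 and up to 0.115 CPM in WT replicate 2, counting error alone. The means were 2.02 ± 2.57 CPM in Mll5+/- and 11.0 ± 14.1 CPM in WT (SD, n = 3 each), with a log2 fold change of -2.44 (SE 2.21, 95% interval -7.59 to 2.70). Without WT replicate 1 the log2 fold change was -0.61, and without Mll5+/- replicate 3 it was -4.27. Cldn11 was the only one of 7 claudins looked at with a row in the table.

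Trf (chromosome 9, 103081200 to 103107643), the iron carrier transferrin, had 205, 188 and 162 CPM across the libraries labelled Mll5+/- and 139, 167 and 227 CPM in those labelled WT. All Mll5+/- values lay within the range of the WT values. The means were 185 ± 21.9 CPM in Mll5+/- and 178 ± 44.7 CPM in WT (SD, n = 3 each), with a log2 fold change of 0.06 (SE 0.242, 95% interval -0.49 to 0.60). Of 13 tested genes of iron handling, Trf included, 5 had a positive and 8 a negative log2 fold change, and edgeR called 0, with 0 at an unadjusted p under 0.05. The ferritin chains Ftl1 and Fth1 had 89.3 and 50.7 CPM per kb, the iron exporter Slc40a1 20.9 and the transferrin receptor Tfrc 1.86, beside 66.0 for Trf. The choroid plexus also makes Trf. Of 10 listed ependymal and choroid plexus markers, only 2, Ttr and Enpp2, had a row in the table. Their levels summed to 0.473, 17.3 and 313 CPM in Mll5+/- and 35.8, 32.9 and 186 CPM in WT. The library with the largest of these sums, Mll5+/- replicate 3, had the second lowest Trf level, and the library with the next largest sum, WT replicate 3, had the highest. The part of choroid plexus RNA in Trf was not tested.

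**Figure D2:**
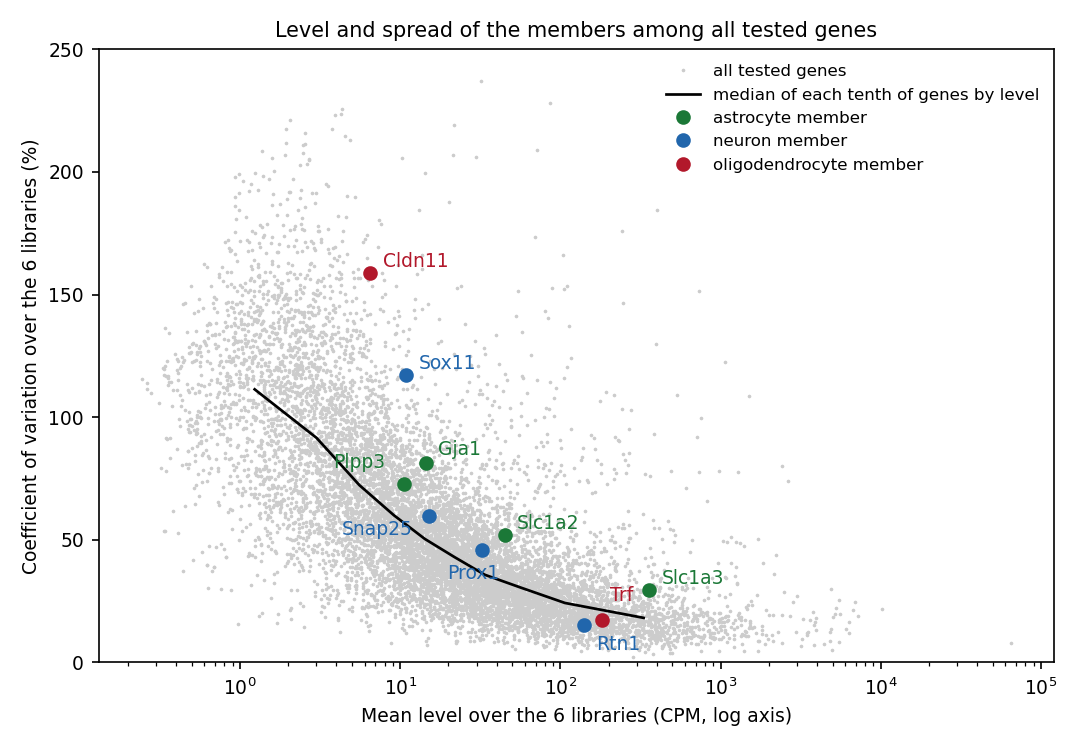
Coefficient of variation over the 6 libraries (vertical axis, percent) against mean level (horizontal axis, CPM, log scale) for 10832 tested genes (grey) and the 10 markers (coloured by class). The line joins the medians of 10 equal bins of genes by level. Rtn1 and Trf lie below the line, and the other 8 lie above it, Cldn11 and Sox11 by the most.

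The spread over the 6 libraries was below that of genes of like level for Rtn1 and Trf, and above it for the other 8 markers. The first pair's coefficients of variation were 15.3% and 17.5%, below the medians of 24.3% and 18.2% among genes of like level (10 bins of all tested genes by mean CPM). Slc1a3, at a like level, had 29.6%, above its bin's median of 18.2%. Slc1a2 had 52.0% against 30.6%, Prox1 45.7% against 35.7% and Snap25 59.5% against 50.4%. Plpp3 had 72.6% against 60.0% and Gja1 81.3% against 50.4%, and for these genes the gap between the genotypes is part of the spread. Sox11 had 117% against 60.0%, and Cldn11 159% against 72.3%. Of all tested genes, 6.39% had a smaller coefficient than Rtn1 and 98.4% a smaller one than Cldn11. Higher coefficients than the bin's median were found for 11 of 16 tested astrocyte markers, 9 of 12 neuron markers and 5 of 7 oligodendrocyte markers, and for 7 of 18 microglia markers. The median coefficients of these lists were 81.1%, 76.2% and 96.1% for the other cell types and 17.6% for microglia, at levels that differ between the lists.

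The highest level over the 6 libraries fell in WT replicate 3 for Gja1, Slc1a3, Plpp3, Rtn1 and Trf, which is 5 of the 10 markers. This library was the highest for 18.8% of all tested genes. Mll5+/- replicate 3 was highest for Snap25 and Sox11 and for 22.6% of tested genes, the largest share of the 6 libraries. Mll5+/- replicate 2 was highest for Slc1a2 and for 15.4% of tested genes, and WT replicate 1 for Prox1 and Cldn11 and for 14.3%. No marker was highest in Mll5+/- replicate 1 or in WT replicate 2, which were highest for 15.3% and 13.6% of tested genes. Ttr and Enpp2 were also highest in Mll5+/- replicate 3, with WT replicate 3 next, and their part in the marker levels of these libraries was not tested.

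**Figure D3:**
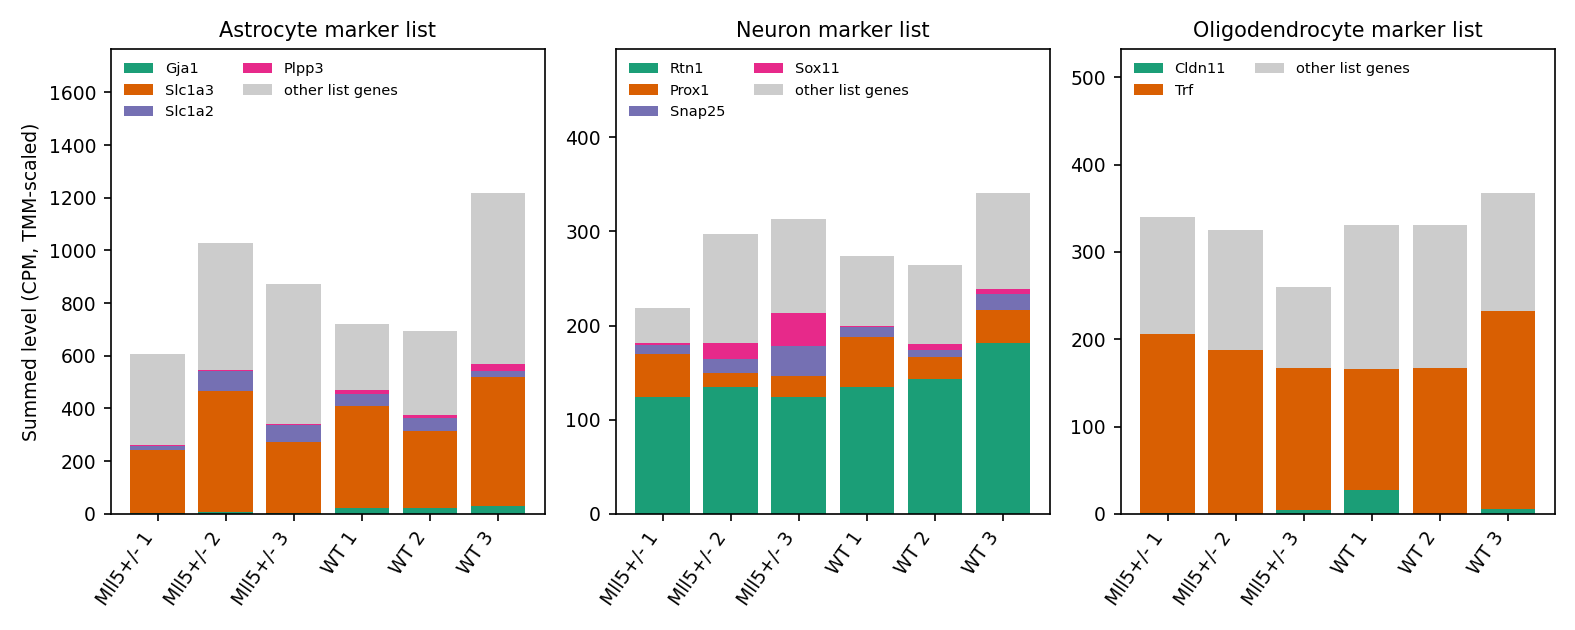
Summed level of each marker list per library (vertical axes, CPM, 1 panel per list), with the 10 markers coloured and the other list genes in grey; the 3 libraries labelled Mll5+/- are left of the 3 labelled WT. Slc1a3, Rtn1 and Trf make up most of what the markers add to their lists in every library.

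The 10 markers were set beside wider lists of their classes. Of 30 astrocyte markers, 17 had a row in the table and 11 had counts in all 6 libraries, and their summed level was 606, 1027 and 873 CPM in Mll5+/- and 719.5, 694 and 1217 CPM in WT. Glul, the enzyme that turns glutamate into glutamine, led the list at 132 CPM per kb, followed in CPM by Slc1a3 and Slc1a2. Gfap and Aldh1l1, which define astrocytes, had no row and were not analysed here. Aqp4, the water channel of astrocyte endfeet, had 0, 6.60 and 3.02 CPM in Mll5+/- and 6.94, 4.96 and 0 CPM in WT. Aldoc had 6.23, 0 and 2.08 CPM in Mll5+/- and 0, 4.92 and 0 CPM in WT, so both were listed at 0 in some libraries of each group. Of the 16 tested list genes, 7 had a positive and 9 a negative log2 fold change with a median of -0.29, against 0.02 over all tested genes, and edgeR called 0, with 2 at an unadjusted p under 0.05.

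Of 36 neuron markers, 13 had a row and 7 had counts in all 6 libraries. Their summed level was 218, 298 and 314 CPM in Mll5+/- and 274, 264 and 340.4 CPM in WT, of which Rtn1 alone gave between 124 and 182 CPM. Elavl4, an RNA-binding protein of neurons, was the next most abundant with 4.26, 53.1 and 48.4 CPM in Mll5+/- and 48.8, 41.2 and 52.6 CPM in WT. Rbfox3, Tubb3, Syt1 and the transmitter genes Slc17a7, Gad1 and Gad2 had no row and were not analysed here. The microtubule regulator Stmn2 had 0, 5.40 and 2.55 CPM in Mll5+/- and 0, 2.23 and 5.27 CPM in WT. Of the 12 tested list genes, 6 had a positive and 6 a negative log2 fold change with a median of -0.09, and edgeR called 0, with 0 at an unadjusted p under 0.05.

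Of 23 oligodendrocyte markers, 9 had a row and 5 had counts in all 6 libraries. The summed level was 339.7, 325 and 259.9 CPM in Mll5+/- and 331, 331 and 367 CPM in WT, most of it from Trf and from Cnp, a myelin enzyme at 31.3 CPM per kb. Mag, a myelin adhesion protein, had 27.2, 23.3 and 26.3 CPM in Mll5+/- and 31.4, 37.0 and 17.2 CPM in WT. Cldn11 was highest in WT replicate 1, where Trf was at its lowest. Mog, which defines mature oligodendrocytes, stayed at or under 0.158 CPM in every library, and the factors Olig1, Olig2 and Sox10 had no row and were not analysed here. The ratio of Trf to Cnp counts spanned 1.55-fold over the 6 libraries, and that of Trf to Rtn1 1.59-fold. Of the 7 tested list genes, 2 had a positive and 5 a negative log2 fold change with a median of -0.64, and edgeR called 0, with 1 at an unadjusted p under 0.05.

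**Figure D4:**
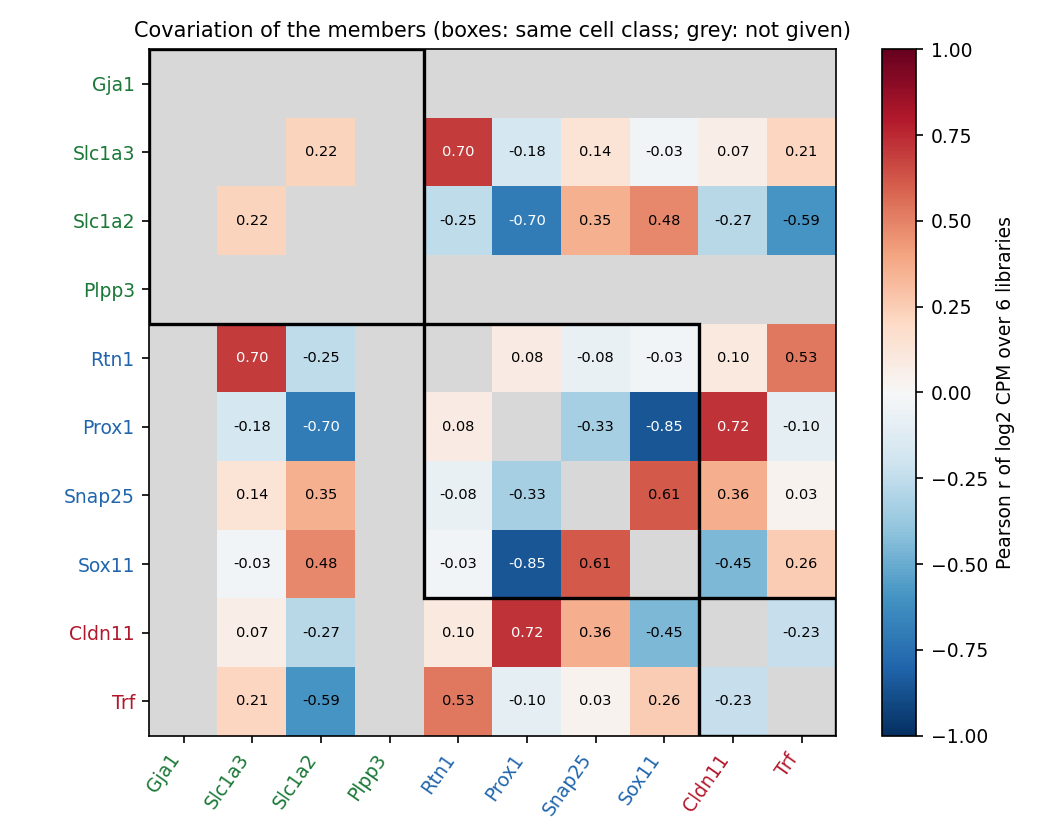
Pearson correlation of log2 CPM over the 6 libraries for each pair of markers (colour and number, from -1 to 1), with the markers of 1 class boxed. Pairs with Gja1 or Plpp3 are grey, since their levels fall into 2 clusters by genotype. Pairs within the boxes are of both signs, from -0.85 for Prox1 and Sox11 to 0.61 for Snap25 and Sox11.

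Covariation over the 6 libraries was examined for all 45 pairs of markers. Gja1 and Plpp3 fall into separate clusters by genotype, so no pooled correlation is given for the 17 pairs that hold them. Those pairs were compared as deviations from the genotype means, with exact permutation over the 36 orders within genotypes. Of the 17, 10 were positive, from r = -0.52 for Gja1 and Cldn11 to r = 0.94 for Plpp3 and Snap25 (exact permutation p = 0.0556). Among the astrocyte markers, Gja1 and Slc1a3 had r = 0.69, Plpp3 and Slc1a3 r = 0.57, Plpp3 and Slc1a2 r = 0.12, Gja1 and Slc1a2 r = -0.02, and Gja1 and Plpp3 r = -0.16. Only Gja1 and Rtn1 (r = 0.43, exact permutation p = 0.0278) had an unadjusted p under 0.05. That is the smallest p that 36 orders allow, so no single pair could have passed the adjustment over the 45. The smallest adjusted p was 0.966 (exact permutation test), and nothing is read from it. Of the other 28 pairs, 8 joined markers of 1 class and 20 joined classes. Within a class, 3 of 8 correlations were positive with a median r of -0.05, and between classes 12 of 20 were positive with a median r of 0.08. No pair passed after Benjamini-Hochberg adjustment over the 45 pairs (smallest adjusted p = 0.625, exact permutation test), and 1 of the 28 had an unadjusted exact p under 0.05. For Spearman's rho without ties, the smallest p that 6 libraries allow is 0.00278. With so few libraries, 1 pair alone could not pass the adjustment over the 45 by either Pearson's r or rho.

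The pair with that p was Prox1 and Sox11, both neuron markers, with a negative sign. Pearson's r was -0.85 (two-sided exact permutation p = 0.0333, adjusted p = 0.625) and Spearman's rho was -0.94 (exact p = 0.0167, adjusted p = 0.375). Without the 2 libraries farthest from the median of Prox1, r was -0.85, and as deviations from the genotype means it was -0.82. Snap25 and Sox11 had r = 0.61 (exact permutation p = 0.190, adjusted p = 0.9375) and rho = 0.49 (exact p = 0.356, adjusted p = 0.973), with r = 0.76 without 2 libraries. The glutamate transporters Slc1a3 and Slc1a2 had r = 0.22 (exact permutation p = 0.632, adjusted p = 0.986) and rho = 0.20 (exact p = 0.714, adjusted p = 0.973), with r = 0.26 without 2 libraries. The oligodendrocyte pair Cldn11 and Trf had r = -0.23 (exact permutation p = 0.642, adjusted p = 0.986) and rho = -0.23 (exact p = 0.650, adjusted p = 0.973), with r = -0.68 without 2 libraries. Across classes, Slc1a3 and Rtn1 had r = 0.70 (exact permutation p = 0.0861, adjusted p = 0.775) and rho = 0.77 (exact p = 0.103, adjusted p = 0.771), and r = 0.26 without 2 libraries. These relations failed the adjustment, and a p above the threshold does not show that the markers vary independently.

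Each marker was also set against the mean log2 level of the other tested genes of its own class list and of the 18 microglia markers, a family of 20 relations added after the data had been seen. No relation passed the adjustment (smallest adjusted p = 0.306, exact permutation test). Rtn1 had r = 0.96 with the microglia markers (exact permutation p = 0.0153, adjusted p = 0.306) and rho = 0.94 (exact p = 0.0167, adjusted p = 0.333), and r was 0.48 without the 2 libraries farthest from the median of the list. Against the 8 other neuron markers, Rtn1 had r = -0.25 (exact permutation p = 0.692, adjusted p = 0.944) and rho = 0.14 (exact p = 0.803, adjusted p = 1.0). Trf had r = 0.71 with the microglia markers (exact permutation p = 0.111, adjusted p = 0.509; rho = 0.71, exact p = 0.136, adjusted p = 0.681), and 0.48 without 2 libraries. With the 5 other oligodendrocyte markers Trf had r = -0.57 (exact permutation p = 0.225, adjusted p = 0.643; rho = -0.43, exact p = 0.419, adjusted p = 0.932), and -0.82 without 2 libraries. Slc1a3 had r = 0.62 with the microglia markers (exact permutation p = 0.153, adjusted p = 0.509; rho = 0.60, exact p = 0.242, adjusted p = 0.806), but -0.24 without 2 libraries. With the 12 other astrocyte markers Slc1a3 had r = -0.22 (exact permutation p = 0.65, adjusted p = 0.944; rho = -0.09, exact p = 0.919, adjusted p = 1.0), and -0.93 without 2 libraries. Slc1a3, Rtn1 and Trf are the 3 most abundant of the 10 markers, and for each of them Pearson's r over the 6 libraries was positive with the microglia list and negative with its own class list. The same signs of r were found for Prox1 and Cldn11, so they were not limited to the abundant markers. Gja1 and Plpp3 were positive with both lists, with no values given here because they fall into clusters by genotype. Slc1a2, Snap25 and Sox11 were negative with the microglia list. That list also holds genes whose groups did not overlap, P2ry12 among them. With the microglia list, Prox1 had r = 0.16 (exact permutation p = 0.81, adjusted p = 0.944; rho = -0.09, exact p = 0.919, adjusted p = 1.0), and -0.69 without 2 libraries. Cldn11 had r = 0.10 (exact permutation p = 0.897, adjusted p = 0.944; rho = -0.29, exact p = 0.578, adjusted p = 1.0), and -0.94 without 2 libraries. With the 5 other oligodendrocyte markers Cldn11 had r = -0.35 (exact permutation p = 0.433, adjusted p = 0.722; rho = -0.06, exact p = 0.933, adjusted p = 1.0), and 0.05 without 2 libraries.

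Prox1 had r = -0.84 with the 8 other neuron markers (exact permutation p = 0.0514, adjusted p = 0.509) and rho = -0.77 (exact p = 0.103, adjusted p = 0.681), and r was -0.61 without 2 libraries. Sox11 had r = 0.49 with them (exact permutation p = 0.328, adjusted p = 0.667; rho = 0.66, exact p = 0.175, adjusted p = 0.700), and 0.27 without 2 libraries. Snap25 had r = -0.01 with them (exact permutation p = 0.979, adjusted p = 0.979; rho = 0.03, exact p = 1.0, adjusted p = 1.0), and -0.37 without 2 libraries. How far each transcript came from microglia themselves and how far from other cells was not tested, since bulk counts hold no cell of origin.

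Over the 10832 tested genes, those whose log2 CPM ran most like a marker's over the 6 libraries came from outside the marker lists. The lists hold few of the 10832 genes, so this is no measure of covariation within a class. Bid (r = 0.996) and Ifitm3 (0.992) were most like Slc1a3, Higd2a (0.992) and Sh3bp2 (0.984) most like Slc1a2, and Agpat1 (0.977) and Parp2 (0.977) most like Rtn1. For Trf they were Pot1b (0.999) and Ndufa2 (0.983), for Cldn11 Slc25a39 (0.989) and Zkscan14 (0.984), and for Sox11 Dph3 (0.980) and Morn2 (0.976). Trub2 and Ulbp1 (both 0.985) were most like Prox1, and Cox7a2l (0.992) and G6pc3 (0.991) most like Snap25. For Gja1 and Plpp3, whose likeness includes the gap between the genotypes, they were Zfp931 (0.989) and Cfap36 (0.993). These are the highest of 10832 values over 6 libraries that share their depth, and they describe these libraries alone.

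**Figure D5:**
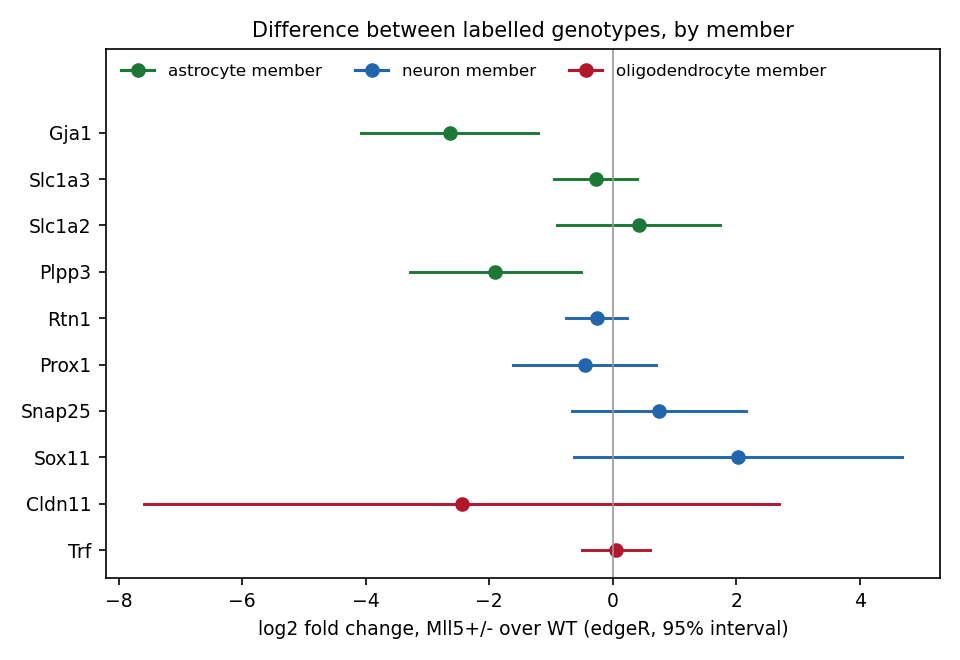
log2 fold change between the libraries labelled Mll5+/- and those labelled WT for each marker (points, positive means higher in Mll5+/-), with the 95% interval from edgeR (lines, n = 3 each). The intervals of Gja1 and Plpp3 leave out 0 and those of the other 8 include it.

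Set side by side, the log2 fold changes of the markers were of both signs within each class. Most of their intervals include 0, and whether a class moved together was not tested. Of the 10 markers, 4 had a positive and 6 a negative log2 fold change, with a median of -0.27 against 0.02 over all tested genes, of which 51.8% were positive. The astrocyte markers ran from -2.64 for Gja1 to 0.42 for Slc1a2, the neuron markers from -0.45 for Prox1 to 2.03 for Sox11, and the oligodendrocyte markers from -2.44 for Cldn11 to 0.06 for Trf. For 8 of the 10 the 95% interval included 0. On the log2 scale the intervals reached no farther from 0 than -0.76 for Rtn1 and 0.60 for Trf, while those of Sox11 and Cldn11 spanned several units. EdgeR called 0 of the 10, and DESeq2 called Gja1 alone.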

How the data were processed

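The deposited values are raw counts by gene symbol for 6 RNA-seq libraries, 3 labelled Mll5+/- and 3 labelled WT, with mm39 gene coordinates. The submitters' processing notes name FastQC, STAR, StringTie and DESeq2. Tool versions, how reads were counted and whether strand was used: not given in the sources used here. No other listed gene overlaps any of the 10 markers. All 6 columns were used, and 0 other columns of per-sample values were present. Each listed gene has a count in at least 2 libraries, so genes with no row were not analysed here.

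Genes were kept with filterByExpr (minimum count 10, minimum total 15), which left 10832 of 11881. CPM used TMM-scaled library sizes. Genotypes were compared by the quasi-likelihood test of edgeR 4.0.16 (R 4.3.3), fitted robustly, Mll5+/- over WT, two-sided, with Benjamini-Hochberg adjustment at 0.05. Correlations used log2 CPM with a prior count of 2 and exact permutation over all orders of the 6 libraries (numpy 2.4.6, scipy 1.17.1). Levels per kb used exon lengths from GENCODE vM21 (GRCm38) matched by symbol. Promoter windows came from RefSeq (GRCm38.p6).

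The markers and lists were chosen with earlier results of these data known. Named genes were the 10 markers, genes of highest CPM and those at 0 from the marker lists, family members with a count, the genes of highest correlation with each marker, and microglial identity genes. From these, some are left out of the text. The p-values of the genotype comparison weigh the difference against the spread between these libraries. Those of correlations are the share of orders with a correlation at least as large in size. Limits for a count of 0 use 3 counts and cover counting error only, since PCR copies were counted without molecular identifiers. Also tried were DESeq2 1.42.0, voom with sample weights (limma 3.58.1), other scalings, filters and prior counts, other list compositions, deviations from genotype means, and leaving out each library. Scripts were tested on simulated data.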

Additional observations from a re-analysis of the deposited data

How the results depend on the processing

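DESeq2 called 29 genes where edgeR called 0. Leaving out each library in turn gave between 0 and 2 calls in edgeR. Over 12 alternatives the direction held for 8 of the 10 markers. Slc1a2 turned to -0.12 in limma-voom with sample weights, and Trf turned to -0.04 without Mll5+/- replicate 1 and to -0.11 without WT replicate 1, with a range of -0.11 to 0.27 over the libraries left out. The cause was not tested. Leaving out 1 library gave -0.63 (without Mll5+/- replicate 2) to -0.07 (without WT replicate 3) for Slc1a3, -1.04 (without Mll5+/- replicate 1) to -0.13 (without WT replicate 1) for Prox1, -0.36 to -0.12 for Rtn1 and -2.12 to -1.59 for Plpp3. The summed oligodendrocyte list had a log2 ratio of -0.15, which was -0.42 without Trf, its most abundant gene, and -0.35 without the markers reported here. The astrocyte list ratio of -0.07 was -0.30 without its most abundant gene and turned to 0.15 without the markers, and the neuron list ratio of -0.08 turned to 0.09 without Rtn1, each a shift smaller than the spread between libraries. No marker pair passed the adjustment under any alternative run. A lone pair could not have passed in any of these runs, because so few libraries allow too few orders. The absence of passing pairs is therefore no sign that the covariation result is stable. No paired analysis was possible because the replicate numbers follow sample order and the labels pair no animals. The common biological coefficient of variation over all tested genes was 80.4%.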

Other observations

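Markers of further cell types differed in how many were measured. Of 10 oligodendrocyte progenitor markers, 3 had a row and 0 had counts in all 6 libraries. Ptprz1, a receptor phosphatase of progenitors, had 0, 5.19 and 1.65 CPM in Mll5+/- and 1.0, 0 and 14.7 CPM in WT, and the 3 genes together were highest in WT replicate 3. Of 14 endothelial and mural markers, 6 had a row, led by Bsg, a glycoprotein that many cells make, at 27.5 CPM per kb. Flt1, a receptor of vessel cells, had no count in any Mll5+/- library and 0, 3.88 and 15.8 CPM in WT. It did not pass edgeR's low-count filter and was called by DESeq2 (adjusted p = 0.035). Run without that filter, edgeR called 0 of 11881 genes. Pecam1, another marker of this list, had 19.4, 5.75 and 14.2 CPM in Mll5+/- and 11.6, 5.85 and 4.37 CPM in WT, which overlap. Of the 3 tested genes of the list, 2 had a positive and 1 a negative log2 fold change, and edgeR called 0.

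Border macrophages share the CD11b of the sort, and 6 of their 8 markers had a row. Their summed level was 417, 368 and 692 CPM in Mll5+/- and 322, 328 and 265 CPM in WT. These sums did not overlap, but each of the 5 tested genes overlapped between the groups. Among all tested genes, 4.68% were higher in Mll5+/- without overlap. Of the 5 tested genes, 5 had a positive log2 fold change (median 0.70), and edgeR called 0, with 0 at an unadjusted p under 0.05. Stab1 and Mrc1, scavenger receptors of border macrophages, led the list with 33.0 and 22.7 CPM per kb. Stab1 had 331, 162 and 488 CPM in Mll5+/- and 218, 245 and 139 CPM in WT. Mrc1 had 80.4, 179 and 189 CPM in Mll5+/- and 93.2, 81.4 and 109 CPM in WT. None of the 10 markers of neurons and macroglia is in this list, and no relation to them was tested.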
